A study of Ogataea angusta with 8 samples.

Results

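The features described here are transcripts of the yeast Hansenula polymorpha whose ratio of xylose-grown to glucose-grown cells was low under both oxygen supplies tested. They were chosen by their measured values: a value on all 8 arrays, a plain mean of at most -0.5 over the 4 microaerobic arrays, a plain mean of at most -0.5 over the 4 aerobic arrays, and means that lay less than 0.6 apart. This rule took 58 of the 5837 identifiers on the array, or 1.08% of the 5355 with 8 values. Because the rule used both means, their size, their sign and any calls made on them are a description and support nothing about these features.

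Hansenula polymorpha is a thermotolerant yeast that can live on methanol and also uses xylose, a pentose of plant biomass. Xylose is reduced to xylitol by xylose reductase, oxidised to xylulose by xylitol dehydrogenase and phosphorylated by xylulokinase, after which it enters the pentose phosphate pathway. Glucose enters glycolysis directly, and in yeasts it represses many genes for the use of other carbon sources. None of the array's identifiers could be paired with a gene, so no role can be given to any of the 58 features and no pathway list could be counted among them.

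The strain was DL-1-L in every culture, and all cultures grew at 37 °C from an optical density of 0.3. Microaerobic cultures had 100 ml of medium in 250 ml flasks shaken at 100 rpm, and aerobic ones 50 ml in 500 ml flasks at 180 rpm, so flask, volume and shaking changed together with oxygen. Every array compared xylose-grown with glucose-grown cells of 1 oxygen condition, with 2 arrays per condition having the xylose RNA in the red dye Cy5 and 2 having it in the green dye Cy3. Arrays are named by that dye and the number in their titles, and values are listed in the order cy5-1, cy5-2, cy3-1 and cy3-2. Nothing in the labels tells whether arrays were made from separate cultures, so the spread between them may be technical.

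The values are log ratios, read here as log2, with the xylose RNA the likely numerator because it is channel 1 of every array and names each sample. Neither the base nor the direction is stated in the sources used here. Every statement below that a transcript was lower on xylose would read as higher on xylose if glucose RNA were the numerator, and folds assume base 2. If the ratios were Cy5 over Cy3 on all arrays, those with xylose RNA in Cy3 would need their sign turned. With the sign turned there, 12 features met the rule, and none of the 58 was among them. Turning makes each mean depend on the Cy5 ratios minus the Cy3 ratios. A feature low with both dyes could then hardly meet the rule, so this outcome was largely fixed. Arrays of the same dye within a condition resembled each other more than arrays of opposite dye. Over features with 8 values, Pearson's r was 0.88 between the microaerobic Cy3 arrays, 0.71 between the microaerobic Cy5 arrays and 0.82 between the aerobic Cy3 arrays, against 0.51 to 0.59 between arrays of opposite dye in the same condition. The exception was the aerobic Cy5 pair, at 0.54.

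The 58 lowered features had moderate ratios. The median of their means was -0.75 in microaerobic cells, with a range of -2.29 to -0.505, and -0.70 in aerobic cells, with a range of -1.85 to -0.50. All features with 8 values had a median of -0.02 in each condition. In microaerobic cells 16 of the 58 had a mean of -1 or lower, a level at least 2-fold lower on xylose, and in aerobic cells 13 did. Both means were at -1 or lower for 8 of them. The features lie beside the diagonal in the plot of condition means, where the bounds of the rule are drawn.

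**Figure D1:**
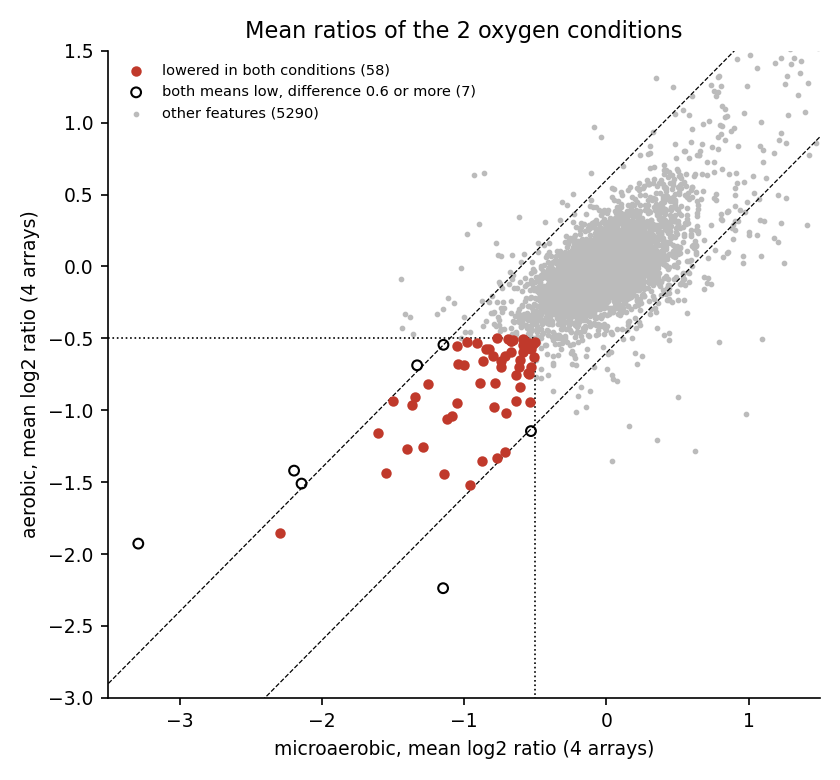
Mean log2 ratio of each feature over the 4 microaerobic arrays (horizontal axis) and the 4 aerobic arrays (vertical axis). Red points are the 58 lowered features, open circles the 7 with both means at -0.5 or lower that lie 0.6 or more apart, and grey points the other features, of which those above 1.5 fall outside the axes; dotted lines mark the bounds on the means and dashed lines the bound on their difference.

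Members crowd the bounds on the means. The 4 nearest inside had their higher mean between -0.505 and -0.50, and the 4 nearest outside had it between -0.4975 and -0.495. On the difference, the widest member had means of -0.71 in microaerobic and -1.29 in aerobic cells, a difference of 0.58, while the nearest feature left out had -1.145 and -0.545, a difference of -0.60. The bound on the difference removed 7 features that were low in both conditions, of which 5 were lower in microaerobic and 2 in aerobic cells. Among the features with 8 values, they include the lowest microaerobic mean, -3.29, and the lowest aerobic mean, -2.24. Another 2 features met all bounds on the values they had but lacked some. The first had means of -1.715 and -1.34 over 7 values. The other had -0.625 and -0.96 from the Cy3 arrays alone, with 4 values. Of the 206 features with 8 values and a microaerobic mean of -0.5 or lower, 28.2% are members, and of the 126 with such an aerobic mean, 46.0% are.

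On each single array most of the 58 features were at -0.5 or lower. The rule chose on these same arrays, so the values and counts below were largely fixed by the choice and only describe the members. In microaerobic cells their median ratio was -0.73, -0.67, -0.84 and -0.93, and in aerobic cells -0.77, -0.625, -0.815 and -0.805. The same 4 microaerobic arrays had 41, 41, 47 and 50 of the 58 at -0.5 or lower, and the aerobic ones 45, 38, 48 and 52, where 4.72% to 7.04% of all features with 8 values lay that low. In each condition both Cy3 arrays had a lower median than both Cy5 arrays. Of the 58 features, 53 were below 0 on all 8 arrays and 17 were at -0.5 or lower on all 8. The 5 members that were not below 0 throughout had 1 such value each, always on a cy5-1 array, 3 of them in microaerobic and 2 in aerobic cells, the highest being 0.41.

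**Figure D2:**
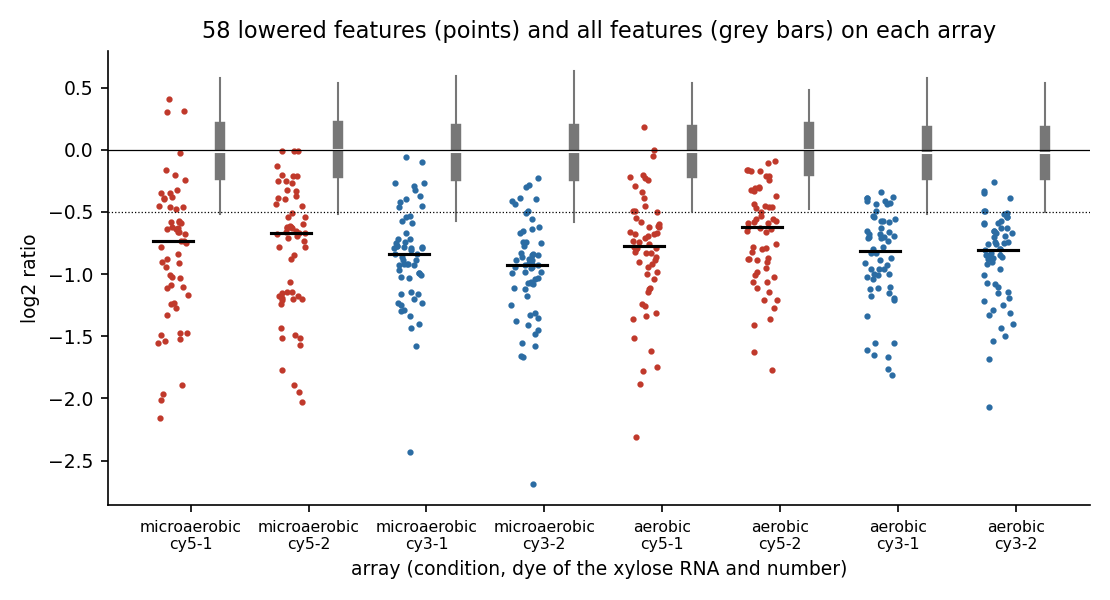
Log2 ratio of the 58 lowered features on each of the 8 arrays (points, red where the xylose RNA carried Cy5 and blue where it carried Cy3), with their median as a black bar. Grey bars give all features with 8 values, thick from percentile 25 to 75 and thin from percentile 5 to 95; the members' medians lie between -0.93 and -0.625 and the medians of all features between -0.03 and 0.

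Ordered by the mean of both conditions, the lowest member was KH-1711. It had -2.16, -1.89, -2.43 and -2.69 in microaerobic cells, against -2.31, -1.77, -1.65 and -1.68 in aerobic cells. All 8 values were at -1.65 or lower, and the ranges of the conditions overlapped. Its mean was -2.29 ± 0.34 in microaerobic cells, or 4.90-fold lower on xylose, and -1.85 ± 0.31 in aerobic cells, or 3.61-fold lower (SD, n = 4 each). Its order by dye turned between the conditions: the Cy3 arrays were the lower ones in microaerobic cells and the higher ones in aerobic cells. That difference in the dye contrast was 0.91 ± 0.27 (SE) and did not pass the test across all features (limma adjusted p = 0.12).

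The next member was KH-1211, with -1.54, -1.77, -1.23 and -1.66 in microaerobic cells and -1.34, -1.36, -1.55 and -1.50 in aerobic cells. Its values were among the most even of the low members, and those of the conditions overlapped. The mean was -1.55 ± 0.23 in microaerobic cells, 2.93-fold lower on xylose, and -1.44 ± 0.10 in aerobic cells, 2.71-fold lower (SD, n = 4 each). The dye made a difference of -0.02 ± 0.13 (Cy5 minus Cy3, SE, limma adjusted p = 0.97).

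The members of rank 3 to 12 are given without identifiers. Their condition means ran from -1.605 to -0.88 in microaerobic cells and from -1.52 to -0.91 in aerobic cells. The member of rank 3 had -1.89, -1.43, -1.43 and -1.67 in microaerobic cells and -1.51, -0.88, -1.15 and -1.08 in aerobic cells. The member of rank 6 had -1.24, -1.20, -1.40 and -1.31 in microaerobic cells and -1.31, -0.80, -1.61 and -1.31 in aerobic cells. In both, the ranges of the conditions overlapped, and the microaerobic mean was the lower one. The means of rank 3 were -1.605 ± 0.22 in microaerobic and -1.155 ± 0.26 in aerobic cells, and those of rank 6 were -1.29 ± 0.09 and -1.26 ± 0.34 (SD, n = 4 each).

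Ranks 8, 9 and 10 were lower in microaerobic cells, with differences, microaerobic minus aerobic, of -0.57, -0.40 and -0.44. For rank 8 the values were -1.96, -1.51, -1.16 and -1.38 in microaerobic cells and -1.14, -0.64, -0.89 and -1.07 in aerobic cells. For rank 9 they were -1.47, -2.03, -0.99 and -0.98 in microaerobic cells and -0.86, -0.79, -1.11 and -1.10 in aerobic cells. For rank 10 they were -1.49, -1.24, -1.30 and -1.35 in microaerobic cells and -0.68, -1.14, -0.96 and -0.85 in aerobic cells. The conditions did not overlap for ranks 8 and 10, while for rank 9 they did, and only its microaerobic Cy5 arrays lay clear of the aerobic values.

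Ranks 7 and 11 had the opposite order. Rank 7 had -1.02, -0.73, -0.89 and -1.18 in microaerobic cells and -1.36, -0.90, -1.76 and -2.07 in aerobic cells, and rank 11 had -1.01, -0.67, -0.92 and -0.91 in microaerobic cells and -1.24, -1.21, -1.67 and -1.29 in aerobic cells. The ranges overlapped for rank 7 and not for rank 11. Their means were -0.955 ± 0.19 and -1.52 ± 0.51 for rank 7, and -0.88 ± 0.15 and -1.35 ± 0.21 for rank 11 (microaerobic, then aerobic, SD, n = 4 each).

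The remaining members of this set split by dye. Rank 4 had -1.27, -1.18, -1.58 and -1.58 in microaerobic cells and -0.94, -1.06, -1.55 and -1.54 in aerobic cells, so its Cy3 arrays were lower in both conditions. Rank 12 had -1.23, -1.49, -0.78 and -0.98 in microaerobic cells and -1.62, -1.63, -0.41 and -0.57 in aerobic cells, so its Cy5 arrays were lower in both. Rank 5 had -2.01, -1.95, -0.10 and -0.51 in microaerobic cells and -1.75, -1.27, -1.34 and -1.40 in aerobic cells. Its low microaerobic mean, -1.14 ± 0.98 (SD, n = 4), rests on the Cy5 arrays, while its aerobic values were low with either dye.

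**Figure D3:**
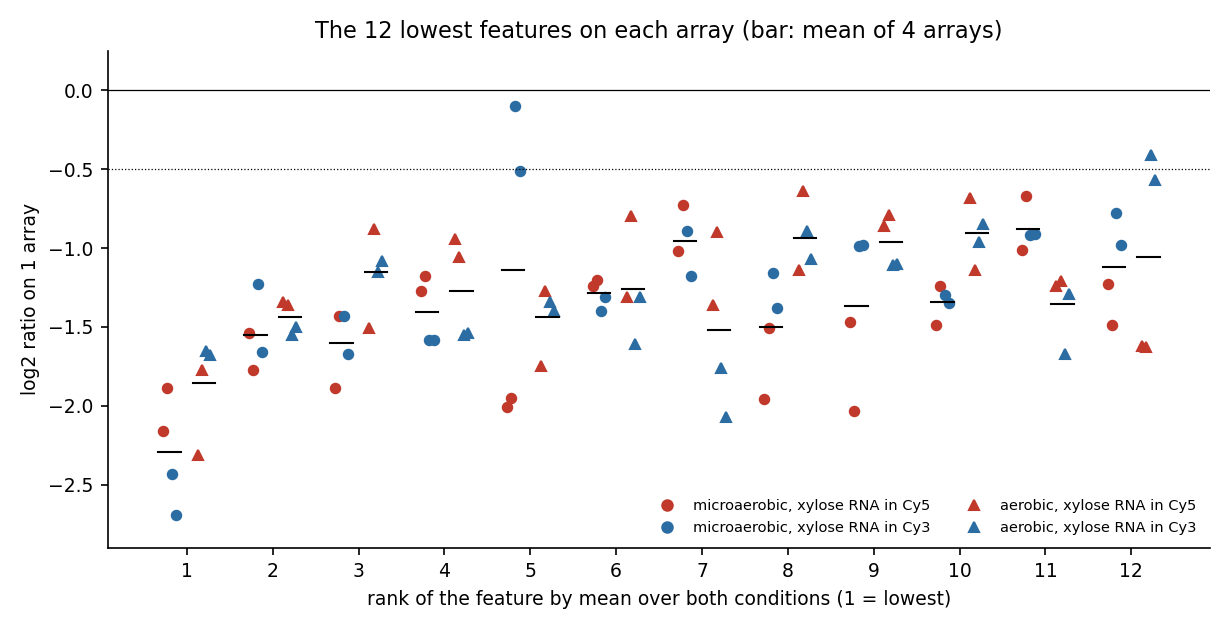
Log2 ratio on each array (points) for the 12 lowest members, ordered by the mean of both conditions, with microaerobic arrays as circles on the left of each rank and aerobic arrays as triangles on the right; red marks xylose RNA in Cy5, blue Cy3, and bars are means of 4 arrays. KH-1711 is rank 1 and KH-1211 rank 2, and the microaerobic values of rank 5 run from -2.01 to -0.10.

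The other 46 members had a median mean over both conditions of -0.70, with a range of -1.06 to -0.51. Their microaerobic means lay between -1.255 and -0.505 and their aerobic means between -1.33 and -0.50. The most even member of all was rank 43, picked out after its values were seen. It had -0.66, -0.61, -0.53 and -0.62 in microaerobic cells and -0.69, -0.58, -0.63 and -0.70 in aerobic cells. Its SD was 0.05 in microaerobic and 0.06 in aerobic cells. Over the 58, the median SD across 4 arrays was 0.29 in microaerobic and 0.24 in aerobic cells, against 0.17 and 0.18 for all features with 8 values. The residual SD of the fit over both conditions was above the median of all tested features for 51 of the 58. Its median was 0.28 for the 58 and 0.19 for all tested features. For the 116 features chosen by the mirrored rule (both means at least 0.5) it was 0.36, so a larger spread was not particular to the lowered features.

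A limma fit of the condition means over all 5674 features with at least 2 values per condition is given only to place the bound of -0.5 beside the fit's calls. The rule chose on these same means, so the counts below were largely fixed by the choice and nothing is read from them. In microaerobic cells 55 of the 58 were called lower on xylose (adjusted p under 0.05), beside 10.7% of all tested features. In aerobic cells 52 were called, beside 5.71%, and in both conditions 52, beside 3.4%.

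Between the conditions the means of each member lay less than 0.6 apart, as the rule requires, and for 5 members at least 0.5 apart. The microaerobic mean was lower for 35 and the aerobic mean for 23, the median difference, microaerobic minus aerobic, was -0.065, and 20 members differed by less than 0.1. The rule also bounds this difference, so calls on it are partly fixed by the choice, and nothing is read from them. Limma called 0 of the 58, beside 1.02% of all tested features, and 15 of the 58 had an unadjusted p under 0.05, against 12.1% of all. The count was 2 with a dye term, beside 3.01% of all tested features, and 1 after quantile normalization, beside 0.775%. With same-number arrays averaged it was 9, beside 5.85%. The ranges of the conditions did not overlap for 5 members, ranks 8, 10, 11, 14 and 28, where 6.8% of all features with 8 values did not overlap. Rank 14 had -0.64, -0.78, -0.79 and -0.86 in microaerobic cells and -1.78, -1.21, -1.19 and -1.14 in aerobic cells. Rank 28 had -0.73, -0.21, -0.46 and -0.74 in microaerobic cells and -0.89, -0.76, -0.93 and -1.19 in aerobic cells. For both, the aerobic values were the lower ones.

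The contrast between arrays with the xylose RNA in Cy5 and in Cy3 was not itself used by the rule, but it cannot be taken as independent of it. Over all features with 8 values the SD of the ratios was 0.384 and 0.362 on the Cy5 arrays and 0.406 and 0.422 on the Cy3 arrays in microaerobic cells, and 0.359 and 0.336 on the Cy5 arrays and 0.402 and 0.383 on the Cy3 arrays in aerobic cells. Within each condition the ratios thus spread more widely on the Cy3 arrays, and how much each array weighed in which means were low was not tested. The members also had larger residual SDs than most features. Those residual SDs come from the fit without a dye term, so they contain this contrast and are not separate from it. The counts and medians of the contrast below describe the members so chosen, and how much the choice moved them was not tested. Limma called this contrast for 7 of the 58 members, where 3.75% of the tested features were called, and 24 of the 58 had an unadjusted p under 0.05, against 18.2% of all. The 5 with the largest effect were ranks 35, 12, 21, 27 and 58. In 5 of the 7 the Cy5 ratio was the higher one, and in 2 it was the lower one, whereas of all 212 called features it was higher in 78 and lower in 134. The count was 4 without microaerobic array cy5-1, microaerobic array cy3-2 or aerobic array cy3-2, beside 2.25%, 2.15% and 2.18% of tested features. With a trended robust prior it was also 4, beside 3.46%.

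Rank 35 had the largest contrast. Its values were -0.39, -0.01, 0.00 and -0.46 on the Cy5 arrays and -1.34, -1.55, -0.69 and -1.15 on the Cy3 arrays (microaerobic cy5-1 and cy5-2, then aerobic, and likewise for Cy3). All 4 Cy5 values lay above all 4 Cy3 values, and the contrast was 0.97 ± 0.16 (SE, limma adjusted p = 0.0046). Rank 27 ran the same way, with -0.62, -0.54, -0.22 and -0.16 on the Cy5 arrays and -1.29, -1.48, -0.83 and -0.88 on the Cy3 arrays. Its contrast was 0.735 ± 0.11 (SE, limma adjusted p = 0.0018). Rank 58 did so too, at -0.35, -0.25, -0.23 and -0.24 on the Cy5 arrays and -0.57, -0.85, -0.70 and -0.92 on the Cy3 arrays, a contrast of 0.49 ± 0.12 (SE, limma adjusted p = 0.032). In ranks 27 and 58 no Cy5 value reached down to a Cy3 value.

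Ranks 12 and 21 ran the other way. Rank 21 had -1.55, -1.19, -1.26 and -0.98 on the Cy5 arrays and -0.32, -0.49, -0.38 and -0.63 on the Cy3 arrays, a contrast of -0.79 ± 0.13 (SE, limma adjusted p = 0.0046). Rank 12, whose values are given above, had a contrast of -0.81 ± 0.14 (SE, limma adjusted p = 0.0059). In both, all 4 Cy5 values lay below all 4 Cy3 values. For these 5 members the condition means average values that differed by dye, and whether either dye's values are nearer the true ratio was not tested.

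Over the whole list, Cy5 and Cy3 arrays did not overlap in microaerobic cells for 44 of the 58 members, where 50.8% of all features with 8 values did not, and in aerobic cells for 34, where 38.7% did not. They parted in both conditions for 25, where 20.8% of all features did, and of these 25 the dye order was the same in both conditions for 15 and opposite for 10. Of the 1116 such features among all with 8 values it was the same for 734 and opposite for 382, a split near that of the members. The median size of the contrast was 0.27 on the log2 scale among members and 0.13 among all features with 8 values. Features chosen by the mirrored rule (both means at least 0.5) were more numerous, at 116. Among these the median size of the contrast was 0.46, and Cy5 and Cy3 arrays parted in both conditions for 62, so parting by dye was not particular to the lowered features. Their median contrast was -0.41, against 0.17 for the 58 lowered features, so in both sets the median feature had the ratio of larger size on the Cy3 arrays. Of the 116, 46 were called for the contrast, 45 of them with the lower ratio on the Cy5 arrays. Whether the sets differ in this was not tested.

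The dye contrast itself differed between the conditions for 4 members, ranks 5, 17, 25 and 38, where 1.55% of tested features were called by limma, and 24 of the 58 had an unadjusted p under 0.05, against 12.5% of all. The largest was that of rank 38, with -1.03, -1.14, -0.06 and -0.23 in microaerobic cells and -0.20, -0.21, -0.96 and -1.43 in aerobic cells. It was low on the Cy5 arrays in microaerobic cells and on the Cy3 arrays in aerobic cells, a difference of contrasts, microaerobic minus aerobic, of -1.93 ± 0.25 (SE, limma adjusted p = 0.0018). Rank 17 had -0.16, -0.13, -1.14 and -1.41 in microaerobic cells and -1.88, -1.02, -1.04 and -1.22 in aerobic cells, a difference of 1.45 ± 0.32 (SE, limma adjusted p = 0.034). Rank 25 had -0.68, -0.62, -0.67 and -0.56 in microaerobic cells and -0.29, -0.32, -1.81 and -1.33 in aerobic cells, a difference of -1.30 ± 0.24 (SE, limma adjusted p = 0.017). For rank 5 the difference was -1.535 ± 0.27 (SE, limma adjusted p = 0.012). Each of ranks 5, 17 and 25 was low with both dyes in 1 condition and, in the other condition, low with 1 dye and markedly less so with the other dye. Without microaerobic or aerobic array cy3-1 the count of 4 was 1, beside 0.41% and 0.356% of tested features. Without microaerobic or aerobic array cy3-2 it was 2, beside 0.339% and 0.446%. It was 9 without aerobic array cy5-1, beside 3.19%, and 7 without aerobic array cy5-2, beside 2.28%.

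**Figure D4:**
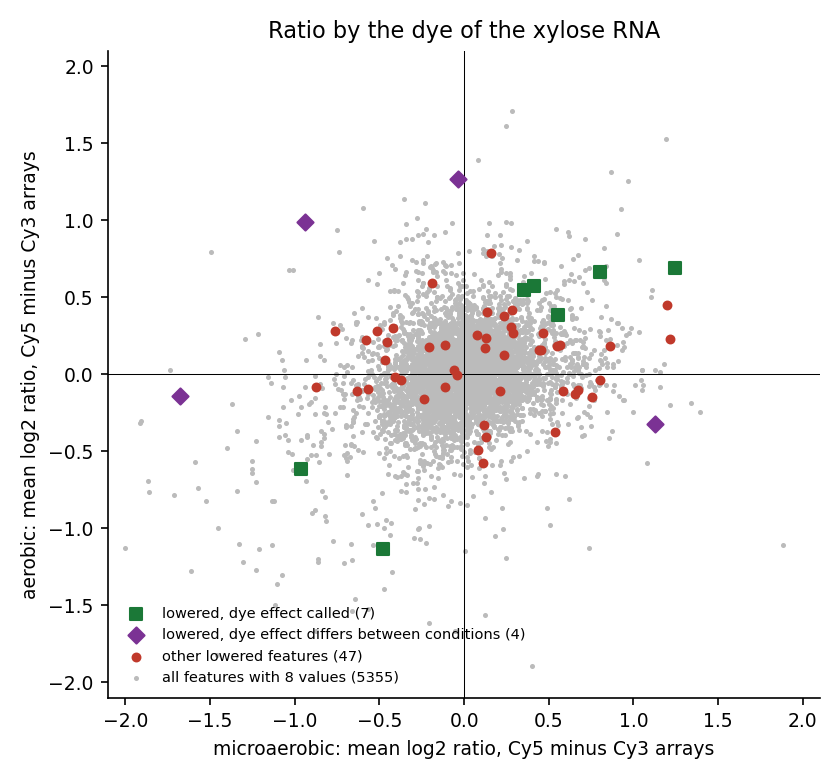
Mean log2 ratio of the 2 Cy5 arrays minus that of the 2 Cy3 arrays (dye of the xylose RNA) in microaerobic cells (horizontal axis) and aerobic cells (vertical axis). Green squares are the 7 members called for the contrast, purple diamonds the 4 called for its difference between conditions, red points the other 47 members and grey points all features with 8 values; the green squares lie in the quadrants of equal sign.

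Whether low ratios recur on arrays that did not choose them was read by the numbers in the titles. The rule applied to the arrays of number 1 took 69 features with 8 values, 46 of them among the 58. On the arrays of number 2, all 69 had a mean below 0 in both conditions, with medians of -0.705 in microaerobic and -0.565 in aerobic cells, against -0.70 and -0.64 on the arrays that chose them. On single arrays 48.4% to 53.5% of all features with 8 values were below 0. The share of all features with both means below 0 was not counted. Both means were at -0.5 or lower for 36 of the 69, or 52.2%, where 1.21% of all features with 8 values had both that low. A limma fit to the number 2 arrays alone called 26 of the 69 lower on xylose in microaerobic cells, where it called 1.33% of tested features, 12 in aerobic cells, where it called 0.407%, and 9 in both, where it called 0.24%.

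The reverse choice gave a similar picture. Arrays of number 2 chose 61 features, 45 of them among the 58, and all 61 had means below 0 in both conditions on the arrays of number 1. Their medians there were -0.735 in microaerobic and -0.675 in aerobic cells. Both means were at -0.5 or lower for 39, or 63.9%, where 1.49% of all features had both that low. The fit to the number 1 arrays called 24 of the 61 in microaerobic cells, where 1.08% of tested features were called, 19 in aerobic cells, where 0.684% were, and 15 in both, where 0.324% were. Each such fit had 2 arrays per condition, 1 of each dye, and the chosen and read arrays have the same dyes, so a dye effect of a feature would recur too. Shared RNA extracts between numbers are not stated and were not tested.

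**Figure D5:**
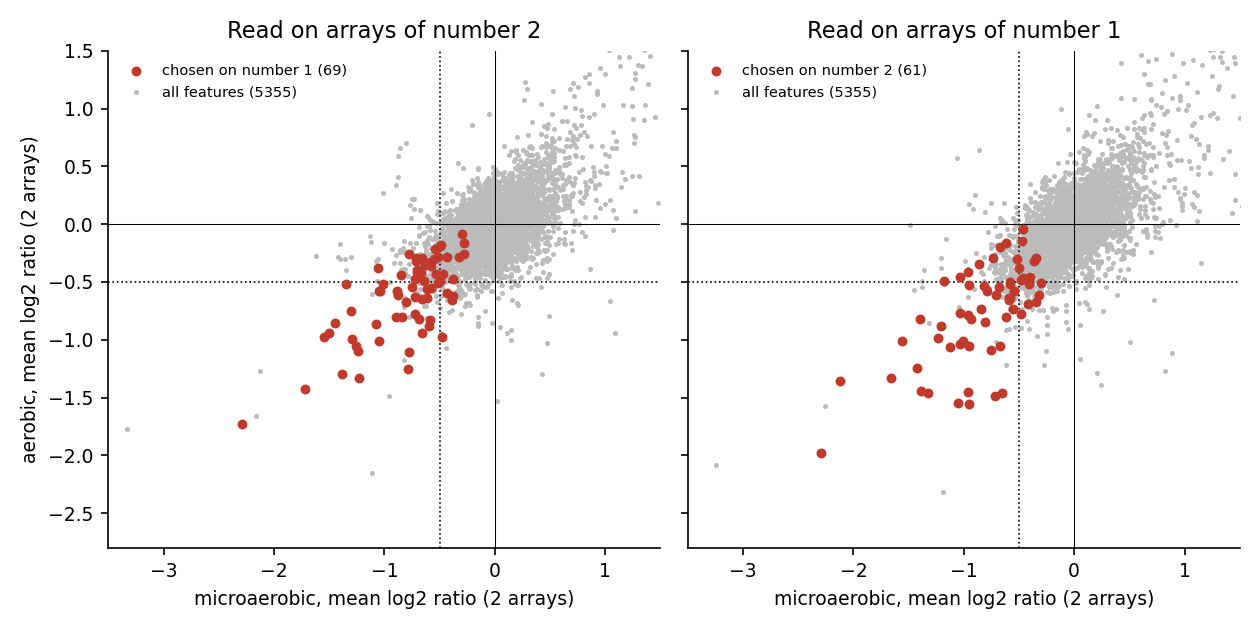
Mean log2 ratio in microaerobic (horizontal axis) and aerobic cells (vertical axis) over the 2 arrays per condition that did not choose the features, with features chosen on the other number in red and all features with 8 values in grey (those above 1.5 fall outside the axes). Left, 69 features chosen on number 1 and read on number 2; right, 61 chosen on number 2 and read on number 1; all red points are below 0 on both axes, and dotted lines mark -0.5.

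Single arrays were read in the same way, but the other array of the same dye and condition stayed in each choice. Such pairs correlated at 0.88 and 0.82 for Cy3 and at 0.71 and 0.54 for Cy5. How much of the recurrence came with this partner was not tested. With 1 array left out of the choice, the rule took 43 to 69 features, 43 to 54 of them among the 58. On the array left out 48.5% to 81.4% of those chosen were at -0.5 or lower, where 4.72% to 7.04% of all features were. All features so chosen were below 0 on the left-out array where it was a Cy3 array of either condition. On those arrays 52.3% to 53.5% of all features were below 0. On the left-out Cy5 arrays, 61 of 69 and 58 of 64 were below 0 in microaerobic cells, and 57 of 61 and 64 of 66 in aerobic cells. Of all features, 48.4% to 52.4% were below 0 on these Cy5 arrays. The share at -0.5 or lower was higher on each Cy3 array, at 71.7% or more, than on any Cy5 array, at 62.3% or less. The Cy3 arrays also had the closer pairs and the more widely spread ratios, and the part of these in the difference was not tested.

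The identifiers carry running numbers, and whether these follow the genome or the layout of the array is not given in the sources used here. Members lay at adjacent numbers in 2 cases, so 6.9% of members had a member beside them, as did 1.64% of the other features with 8 values. Numbers 4 apart and 5 apart gave the same 6.9%, from 2 pairs each, beside 1.79%. Numbers 2 apart gave 3.4%, beside 1.83%, and numbers 3 apart gave 0%, beside 1.79%. The 87 other features next to a member had a median mean ratio of -0.025, against -0.02 for all, and the ratios of adjacent numbers correlated at r = -0.01 over 4628 adjacent pairs. The share of members varied by block of numbers. Of the 895 features with 8 values numbered 1001 to 2000, 15 were members, or 1.68%, and of the 1176 numbered above 5000, 4 were, or 0.34%. In the other blocks 0.84% to 1.56% were members. Features chosen by the mirrored rule also had their lowest share above 5000, at 1.53%, against 1.92% to 2.67% in the other blocks. Features numbered above 5000 also had the smallest SD of mean ratios among the 6 blocks of numbers examined, 0.22, against 0.36 for those numbered 1001 to 2000. No test was made of these counts.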

How the data were processed

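Total RNA (30 µg per sample) was copied from an oligo dT primer and labelled by aminoallyl chemistry, per the labels' protocols. The deposited value of a feature on an array is a log ratio, taken here as log2. The sources used here do not give the scanner, background correction, normalization or log base. Ratios were used as deposited. None of the 5837 identifiers matched the 5442 genes of RefSeq's table for assembly ASM1920747v1, so no gene is named.

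The members and the rules for describing them were chosen with earlier results of these data known. At most 2 identifiers are printed, the members of lowest mean over both conditions among those below 0 on all 8 arrays. Ranks 3 to 12, members at the bounds and up to 5 members with the largest called dye contrast are described without one, and other members singled out were picked after their values were seen.

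Tests used limma 3.58.1 in R 4.3.3 (lmFit, eBayes) over all features with at least 2 values per condition, Benjamini-Hochberg adjustment over these and a threshold of 0.05. The fit had a coefficient per condition, and dye and its interaction with condition were added for the dye contrasts. The fits were tested on simulated data. Deviations of equally labelled arrays from their condition means correlated across features at 0.24, 0.21, 0.34 and 0.29 between conditions, all above 0.1, so dye and number were also fitted as a replicate block. This pairing comes from the data and not from the design. Alternatives were other bounds, centring, quantile normalization, a dye term, averaging of same-number arrays, another prior and leaving out each array. The number of arrays limits the precision.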

Additional observations from a re-analysis of the deposited data

Results flagged for a closer look

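In 124 groups of 4 values (each member in each condition, and array summaries), 7 had 1 value far from the other 3 by Dixon's test, which flags about 1 in 20 groups by chance. These were 4 members in aerobic cells: rank 14 at -1.78 on array cy5-1 (others -1.21 to -1.14), rank 41 at -0.41 on cy3-1 (others -0.67 to -0.63), rank 51 at -0.09 on cy5-2 (others -0.74 to -0.63) and rank 53 at -0.83 on cy3-1 (others -0.51 to -0.47). The count of members not below 0 was also flagged on microaerobic array cy5-1, at 3, and on aerobic array cy5-1, at 2, with 0 on each other array of the same condition. With the other 3 counts at 0, any count above 0 would be flagged, so nothing is read from these 2 flags. Microaerobic array cy5-2 had a value for 5493 features, fewer than the other 3, at 5651 to 5670.

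The contrast of Cy5 and Cy3 arrays differed between microaerobic and aerobic cells by a test of the interaction for 4 members: by -1.535 for rank 5, 1.45 for rank 17, -1.30 for rank 25 and -1.93 for rank 38 (microaerobic minus aerobic, log2 scale). Causes were not tested.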

How the results depend on the processing

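The rule took 116 features with a bound of -0.4 and 33 with -0.6, all 58 and 33 of them from the list. It took 12 with the sign of the Cy3 arrays turned, none of them from the list, an outcome largely fixed by the turning. Under the other alternatives it took 43 to 69. Members called for the difference between conditions numbered 2 with a dye term, 1 after quantile normalization, 9 with same-number arrays averaged and 0 otherwise. The shares of all tested features were 3.01%, 0.775% and 5.85% under these 3 alternatives, against 1.02% in the main fit. Members called for the dye contrast numbered 4 with a trended robust prior, beside 3.46% of tested features. With 1 array left out they numbered 4 to 10, beside 1.75% to 4.33%. Those called for its difference between conditions then numbered 1 to 9, beside 0.339% to 3.19%. In the paired fit (replicate block of equal dye and number), 57 members were called in microaerobic cells, 56 in aerobic cells and 56 in both. The shares of tested features were 13.5%, 7.97% and 4.85%. It called 0 for the difference, beside 1.78%. With number as a replicate block, 7 and 3 were called for the dye contrasts, beside 2.97% and 1.46%. The block thus moved no count of calls by over 1.5 times. Calls on the condition means and their difference rest on values that chose the members and say nothing about stability. The difference between conditions of KH-1211, -0.11, was 0.022 after quantile normalization and was not called under any alternative. The cause of these changes was not tested. Without spot intensities, signal over background is unknown.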
